A study of Mus musculus with 24 samples.

Results

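The comparison described here is the genotype by diet interaction, that is, whether a choline-rich maternal diet shifted RNA levels in trisomic mice by a different amount than in their disomic littermates. It uses all 24 libraries of the series and all 4 groups. For each gene the log2 effect of the diet in 2N mice was subtracted from the log2 effect of the diet in Ts65Dn mice, so a positive interaction means that the diet effect was more positive in Ts65Dn mice.

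RNA came from cholinergic neurons of the basal forebrain, from the medial septum with the vertical limb of the diagonal band (the MS/VDB area), in male mice about 6 months old. Neurons were found by a rapid immunostain for choline acetyltransferase and cut out by laser, about 500 per mouse, for low-input total RNA libraries. The groups were Ts65Dn mice of supplemented dams (n = 8), Ts65Dn mice of control dams (n = 6), 2N mice of supplemented dams (n = 4) and 2N mice of control dams (n = 6). The design text states 6 mice per group, and the labels of the individual libraries were followed. Supplemented chow held 5.0 g/kg choline chloride and control chow 1.1 g/kg, given from conception until weaning, after which every mouse ate control chow. In all 4 groups the mothers were Ts65Dn and the fathers were F1 hybrids (C57Bl/6J Eicher × C3H/HeSnJ), so the strain background was mixed. Each library was 1 mouse, the labels give no litter, and the diet was given to dams, so p-values measure the spread between mice and leave the litter out of account.

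Ts65Dn mice carry an extra copy of a segment of chromosome 16 that matches much of human chromosome 21, together with a short segment of chromosome 17 that has no counterpart on human chromosome 21. Basal forebrain cholinergic neurons project to the cortex and hippocampus and degenerate with age in these mice and in Down syndrome. Choline is the precursor of acetylcholine and of phosphatidylcholine, and through betaine it donates methyl groups, which is why maternal intake is studied for lasting effects on the brain.

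A single gene passed the interaction test, Mir6236, which is annotated as the hairpin of a microRNA. A microRNA is cut from such a hairpin and pairs with its targets through the seed, bases 2 to 8. Counts are given for the hairpin gene as a whole, so the hairpin and the short mature form within it cannot be told apart here. GENCODE M21 places that gene on chromosome 9, where the stretch of the mature form overlaps no other annotated gene. The rest of the hairpin was not checked for overlaps. No other transcript among the 141767 annotated ones searched matched the hairpin. The long RNA of the large cytosolic ribosomal subunit was not among those searched, so a match to it was not measured.

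The libraries held 4688258 to 13443438 counts, with 13102 to 22593 genes detected. RNA of Chat, whose protein served to pick the cells, was below 1 CPM (counts scaled to the library size) in 6 libraries, and the library of control Ts65Dn mouse 3 held none. Supplemented Ts65Dn libraries 2 and 5 stand among the supplemented 2N libraries in the deposited matrix, although their labels say Ts65Dn. The libraries also split in Bc1, a short noncoding RNA of neurons, which stood at 2834 to 15442 CPM in 7 libraries and at 8.31 to 97.4 CPM in the other 17. The 7 were supplemented Ts65Dn mice 1, 3, 4, 6, 7 and 8 and control Ts65Dn mouse 3, with no 2N mouse among them. They occupy 7 adjacent columns of the deposited matrix. Mitochondrial ribosomal RNA made up 29.0 to 43.3% of counts in these 7 and 13.5 to 25.8% in the other 17. Most main results below are therefore also given without these libraries, a choice made after the data were seen. The supplemented Ts65Dn group then holds only mice 2 and 5, the pair that stands among the 2N columns, and the control Ts65Dn group holds 5 mice. Xist, the RNA made from an inactive X chromosome, stood at 21.1, 14.7 and 8.68 CPM in control Ts65Dn mice 1, 2 and 6 and at 17.1 CPM in supplemented 2N mouse 2, and at 2.60 CPM or less in the other 20 mice, although the study used males. The labels were followed, and the part of this in the results was not tested.

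The quasi-likelihood F test of edgeR covered 19967 genes, of which 0 had a positive and 1 had a negative interaction at a Benjamini-Hochberg adjusted p under 0.05, which is 0.00501% of genes. Of all tested genes, 10863 (54.4%) had a positive interaction, which is the background for the counts of list members below. At an unadjusted p under 0.05 there were 1683 genes (8.43%), of which 1154 (5.78%) were positive and 529 (2.65%) negative. For 717 of these 1154 and 203 of these 529, some group had no count at all. Another gene, Gm28437, passed at an adjusted p under 0.1. In the simple comparisons, 10 genes rose (0.0501%) and 16 fell (0.0801%) with the supplement in Ts65Dn mice, together 0.13% of genes. In 2N mice 1 rose (0.00501%) and 0 fell. Among supplemented mice, 33 genes were higher (0.165%) and 3 lower (0.015%) in Ts65Dn than in 2N mice, together 0.18%. Among control mice, 58 were higher (0.29%) and 9 lower (0.0451%), together 0.336%. The median standard error (SE) of a log2 interaction was 2.92 for genes under 1 CPM on average, 0.89 for genes between 10 and 100 CPM, and 0.26 for genes of 1000 CPM or more. Of the 12 named genes with the smallest p among positive interactions, 7 were mitochondrial. Others at the top rested on few counts, such as Zfp524, a zinc finger gene, which averaged 9.44 CPM in supplemented and 0.0158 CPM in control Ts65Dn mice, and 0 CPM in supplemented and 6.28 CPM in control 2N mice. No fold is given for a gene with a group at 0.

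Across the 8748 genes averaging at least 10 CPM, the estimated diet effects in the 2 genotypes were nearly uncorrelated, with r = 0.10 and rho = 0.07. Genes are not independent replicates. The sign of the effect was the same in both genotypes for 4659 of them, or 53.3%. Both effects come from separate mice. By level, r was 0.07 for the genes of 10 to 100 CPM, 0.45 for the 1352 genes of 100 to 1000 CPM, and -0.25 for the 63 genes of 1000 CPM or more. The 7333 genes of 10 to 100 CPM had median SEs of 0.57 in Ts65Dn and 0.68 in 2N mice. Over the 8748 genes, the interquartile range of the effects was -0.36 to 0.40 in Ts65Dn and -0.37 to 0.27 in 2N mice. Errors of that size lower r, so a low r does not show that the genotypes responded differently.

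**Figure D1:**
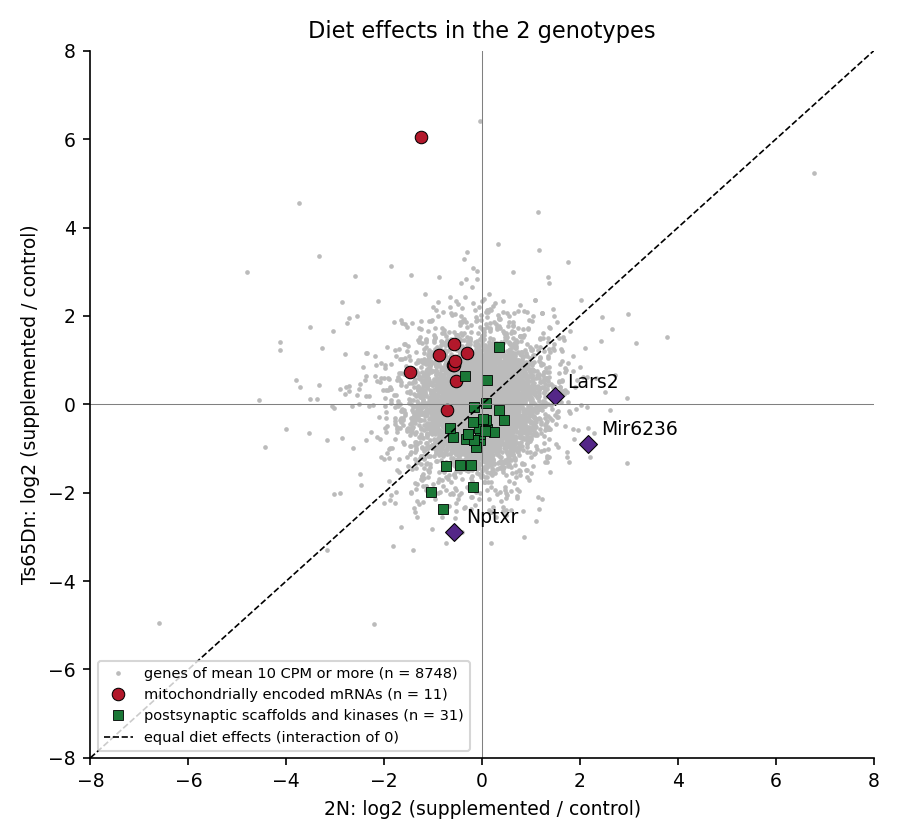
Log2 effect of the maternal supplement in Ts65Dn mice against that in 2N mice for the 8748 genes averaging at least 10 CPM, with 5 genes outside the axes; the dashed line marks equal diet effects. The mitochondrially encoded mRNAs lie above the dashed line, with mt-Nd3 far above the others and mt-Atp6, which has no count in 2 groups, outside the axes; most of the 31 plotted postsynaptic genes lie below the line, as do Mir6236, Lars2 and Nptxr.

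Mir6236 was the gene whose diet effect differed between the genotypes. Its levels were 589.7, 849, 693, 877, 1799, 766, 253 and 1794 CPM in supplemented Ts65Dn mice. Control Ts65Dn mice had 2789.5, 2022, 702, 1244, 2384 and 1447 CPM. Supplemented Ts65Dn mice tended lower, with 3 of 8 below every control Ts65Dn mouse and the rest overlapping them. Supplemented 2N mice had 2407, 1128, 1561 and 1177 CPM, against 272, 604, 163, 269.6, 468 and 312 CPM in control 2N mice. Here the groups did not overlap. All 4 supplemented 2N mice stood above all 6 control 2N mice, at levels reached by control Ts65Dn mice.

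The log2 diet effect on Mir6236 was -0.89 ± 0.29 (SE) in Ts65Dn mice, with an adjusted p of 0.24 by edgeR's quasi-likelihood test. In 2N mice Mir6236 rose by 2.17 ± 0.35 (adjusted p = 0.00413), and it was the only gene called in that comparison. The interaction was -3.06 ± 0.46 (95% interval -3.99 to -2.14, adjusted p = 0.000705). Read the other way, Mir6236 was higher in Ts65Dn than in 2N mice on the control diet, by 2.34 ± 0.33 (adjusted p = 0.000106). On the supplemented diet the difference was -0.72 ± 0.33 (adjusted p = 0.471). Without the 7 Bc1-rich libraries the interaction was -2.77 ± 0.45 (adjusted p = 0.00391), with diet effects of -0.60 ± 0.34 in Ts65Dn and 2.17 ± 0.25 in 2N mice. The call held when any library was left out, with values of -3.29 to -2.78. It was lost with limma-voom and quality weights (adjusted p = 0.0606), with a robust edgeR fit (adjusted p = 0.168), and with the mitochondrial ribosomal RNA share as a covariate (-2.49, adjusted p = 0.0677).

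Lars2, the mitochondrial leucyl-tRNA synthetase, which charges the tRNA that brings leucine to the mitochondrial ribosome, was arranged likewise in 2N mice. Supplemented Ts65Dn mice ran from 3023 to 13846 CPM with a median of 7052. Control Ts65Dn mice ran from 3273 to 12714 CPM with a median of 6967, so those groups overlapped almost fully. Supplemented 2N mice had 4202, 3647, 3039 and 3230.2 CPM, against 352 to 2328 CPM with a median of 1213 in control 2N mice. Again all 4 supplemented 2N mice lay above every control 2N mouse. The interaction of Lars2 was -1.31 ± 0.45 (95% interval -2.21 to -0.41) and did not pass the edgeR test (adjusted p = 0.347), nor did its diet effect in 2N mice (1.49 ± 0.34, adjusted p = 0.52). With the 7 Bc1-rich libraries left out, the interaction was -1.94 ± 0.50 (adjusted p = 0.296), and Lars2 rose with the supplement in 2N mice by 1.49 ± 0.29 (adjusted p = 0.045). Its level on the control diet was higher in Ts65Dn than in 2N mice by 2.51 ± 0.33 (adjusted p = 2.58e-05).

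**Figure D2:**
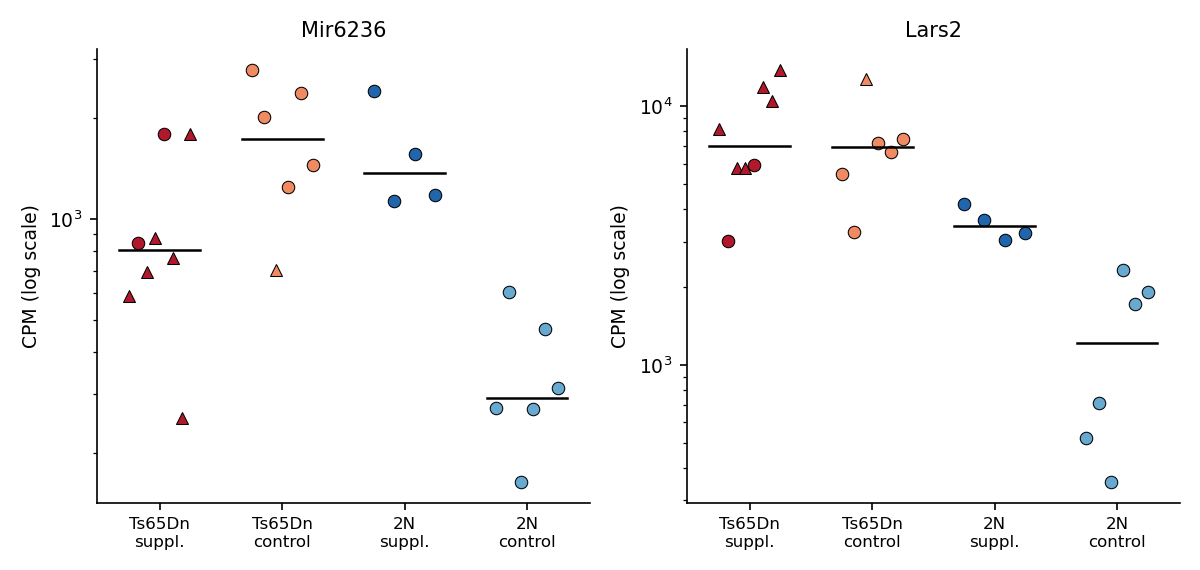
Levels of Mir6236 and Lars2 in CPM on log axes, 1 point per mouse in the 4 groups; horizontal lines are group medians and triangles mark the 7 libraries with Bc1 above 1000 CPM. In both genes the supplemented 2N mice lie above the control 2N mice without overlap, while the Ts65Dn groups overlap.

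The mitochondrial genome encodes 13 proteins, all subunits of the respiratory chain or of ATP synthase, and its RNAs are made as long transcripts of either strand that are cut apart at the tRNAs. Of these 13 mRNAs 11 were tested, and all 11 had a positive interaction, with a median of 1.54 against 0.13 for all tested genes. At an unadjusted p under 0.05 there were 9 of 11, where 5.78% of all genes were positive at that level, and none of the 11 passed the adjusted threshold. mt-Atp6 had no count in 2 groups. Their median diet effect was 0.98 in Ts65Dn mice and -0.58 in 2N mice.

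mt-Nd1, a subunit of complex I, ran from 1156 to 3528 CPM with a median of 2416 in supplemented Ts65Dn mice, and from 257 to 1862 CPM with a median of 769.8 in control Ts65Dn mice. It stood at 1471, 950.5, 1978 and 770.4 CPM in supplemented 2N mice, against 1111 to 2418 CPM with a median of 2073 in control 2N mice. Control Ts65Dn mice had the lowest median, and all 4 groups overlapped. mt-Nd1 rose with the supplement in Ts65Dn mice by 1.37 ± 0.29 (adjusted p = 0.0212, edgeR). Its diet effect in 2N mice was -0.58 ± 0.33 (adjusted p = 0.898) and its interaction 1.95 ± 0.44 (95% interval 1.06 to 2.84, adjusted p = 0.158).

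mt-Cytb, the cytochrome b of complex III, ran from 2158 to 5552 CPM (median 3967) in supplemented Ts65Dn mice and from 802 to 3389.6 CPM (median 1727) in control Ts65Dn mice. Its levels were 2435, 1721, 3039.5 and 1819 CPM in supplemented 2N mice and 1934 to 4170.1 CPM (median 3679) in control 2N mice. The interaction of mt-Cytb was 1.50 ± 0.35 (95% interval 0.79 to 2.20, adjusted p = 0.166). mt-Nd6, the complex I subunit read from the opposite strand to the other mRNAs, ran from 644 to 2098 CPM (median 1335) in supplemented Ts65Dn mice and from 287 to 781 CPM (median 559.7) in control Ts65Dn mice. It stood at 729.6, 333, 637 and 570.2 CPM in supplemented 2N mice and at 471 to 901 CPM (median 671) in control 2N mice. mt-Nd6 rose with the supplement in Ts65Dn mice by 1.15 ± 0.24 (adjusted p = 0.0212, edgeR), while its interaction was 1.46 ± 0.37 (adjusted p = 0.208).

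For 7 of the 13 mRNAs the nuclear genome holds a near-identical annotated copy, which need not span the whole gene. The authors' counting could split reads between gene and copy. Gm28437, the gene past an adjusted p of 0.1, is the copy of mt-Co3, a subunit of complex IV. With each gene summed with its copy, all 13 interactions were positive, from 1.04 to 2.41 with a median of 1.88, and all 13 had an unadjusted p under 0.05. None passed, and the smallest adjusted p was 0.0613, for mt-Co3. Summed mt-Co3 ran from 771 to 1949 CPM (median 1454) in supplemented Ts65Dn mice and from 223 to 895 CPM (median 441) in control Ts65Dn mice. It had 940.4, 681, 1024 and 685 CPM in supplemented 2N mice and 851 to 1286 CPM (median 1134) in control 2N mice. Summed mt-Co3 rose by 1.45 ± 0.24 with the supplement in Ts65Dn mice (adjusted p = 0.00121, edgeR), with -0.43 ± 0.28 in 2N mice and an interaction of 1.88 ± 0.37. The summed counts were not fitted without the Bc1-rich libraries. Supplemented Ts65Dn mice 2 and 5, which are not Bc1-rich, had 771 and 826 CPM of summed mt-Co3. Control Ts65Dn mice 1, 2, 4, 5 and 6 had 223, 895, 545, 756 and 283 CPM.

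The 2 mitochondrial ribosomal RNAs had interactions of 1.26 ± 0.31 for mt-Rnr1 (adjusted p = 0.193) and 0.98 ± 0.33 for mt-Rnr2 (adjusted p = 0.335). As a share of all counts, they made up 17.8 to 43.3% (median 32.9%) in supplemented Ts65Dn mice and 13.5 to 29.3% (median 19.9%) in control Ts65Dn mice. The share was 21.0, 19.4, 22.6 and 18.1% in supplemented 2N mice and 18.9 to 25.8% (median 23.1%) in control 2N mice. The interaction of the group means was 12.9 percentage points (exact permutation test of the diet labels within each genotype, two-sided, p = 0.00691, adjusted over 2 library measures 0.0138). Such a permutation assumes no diet effect in either genotype, so its p-value does not measure unequal diet effects alone. The number of genes detected had an interaction of 1593 genes (exact permutation p = 0.423).

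The ribosomal RNA share was high in all 7 Bc1-rich libraries, 6 of which were supplemented Ts65Dn mice. mt-Nd1 stood at 1953 CPM or more in those 6 mice and at 1156 and 1464 CPM in supplemented Ts65Dn mice 2 and 5. In Bc1-rich control Ts65Dn mouse 3 mt-Nd1 stood at 387 CPM, the second lowest of all mice. When the 7 were left out, with supplemented Ts65Dn mice 2 and 5 alone in their group, 8 of 11 mitochondrial mRNAs were positive with a median of 0.56, and 1 had an unadjusted p under 0.05. mt-Nd1 then had an interaction of 0.93 ± 0.46 (adjusted p = 0.62), and the ribosomal RNA share 3.50 percentage points (exact permutation p = 0.377). The diet calls of mt-Nd1 and mt-Nd6 in Ts65Dn mice were then lost as well with that pair set against 5 control mice, at adjusted p = 0.755 and 0.798 (edgeR). Without supplemented Ts65Dn mice 2 and 5 that group held only Bc1-rich libraries, so diet and Bc1 level can hardly be told apart. The share's interaction was then 16.7 points (exact permutation p = 0.000356), and 9 mitochondrial genes were called among 27. With the first part of the mouse identifier as a factor, 7 mitochondrial genes were among 12 called. Leaving out control Ts65Dn mouse 2 called 6 mitochondrial genes among 12. No identifier prefix was found in all 4 groups, so that factor and the groups are only partly separable. The prefixes were also uneven by diet in both genotypes. Prefix 17 was that of 4 control Ts65Dn and 4 control 2N mice, but of 1 supplemented Ts65Dn and 0 supplemented 2N mice. The 76 genes of nuclear-encoded respiratory chain subunits had a median interaction of 0.18, with 49 positive, 4 and 1 at an unadjusted p under 0.05 in the positive and negative directions, and 0 called. Over all tested genes 54.4% were positive, with 5.78% positive and 2.65% negative at that level.

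**Figure D3:**
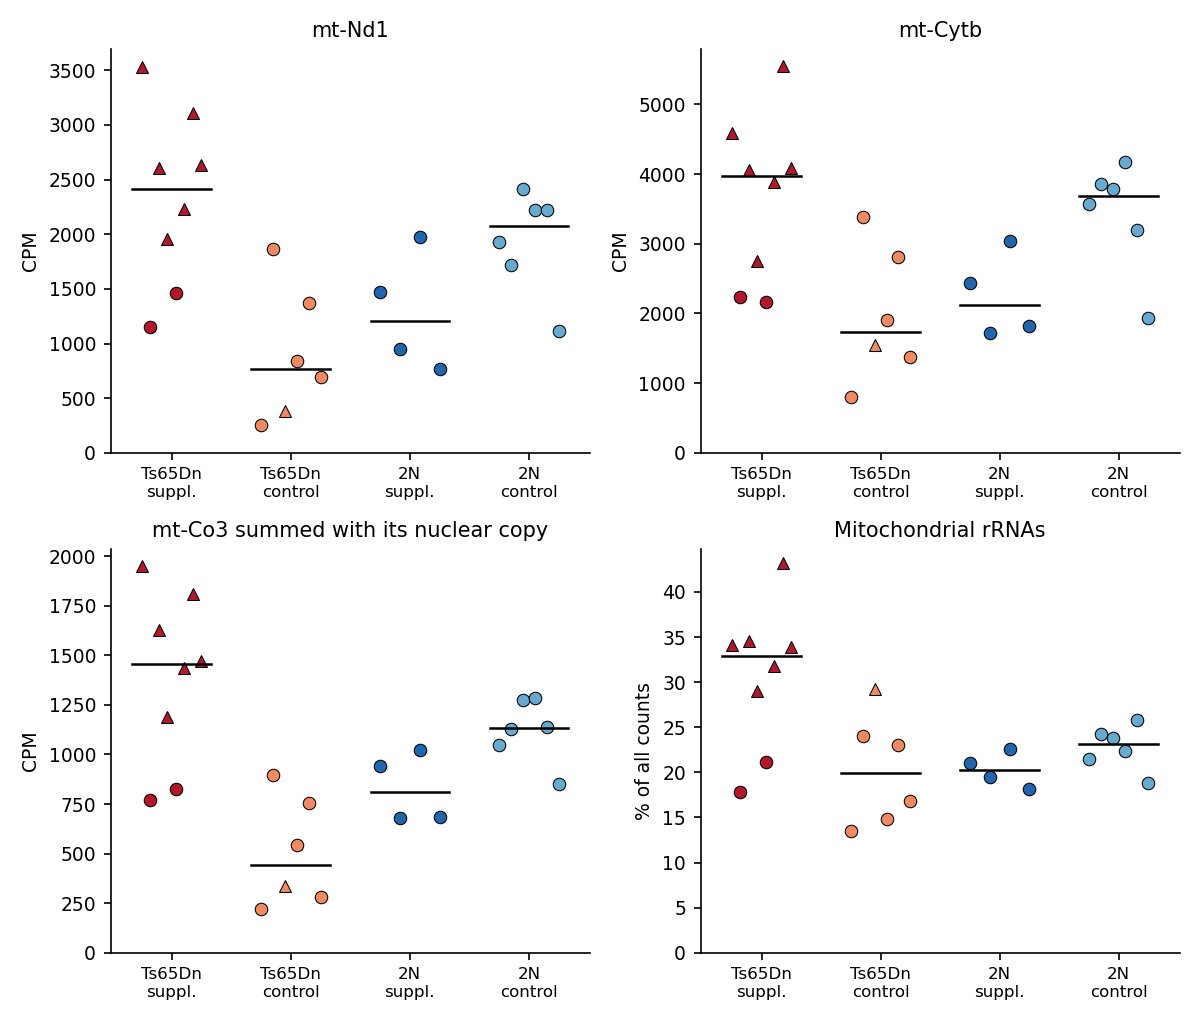
CPM of mt-Nd1, of mt-Cytb and of mt-Co3 summed with its nuclear copy, and the share of counts in mitochondrial ribosomal RNA in percent, 1 point per mouse with the group median as a line; triangles mark the 7 libraries with Bc1 above 1000 CPM. The 6 triangles among supplemented Ts65Dn mice hold the highest ribosomal RNA shares of that group, at 29.0% or more.

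Small structural and nucleolar RNAs differed widely between libraries. Rprl2, an RNase P RNA-like gene, stood at 862, 0, 1359.7, 565, 0.0860, 661, 1605 and 0 CPM in supplemented Ts65Dn mice and at no more than 4.67 CPM in the other 16 mice. It rose with the supplement in Ts65Dn mice by 9.27 (adjusted p = 0.000876, edgeR), with an interaction of 9.66 ± 2.04 (adjusted p = 0.11). It was at 0 in supplemented mouse 8 and control Ts65Dn mouse 3, which are Bc1-rich. The interaction of Rprl2 was -3.97 ± 3.99 when the Bc1-rich libraries were left out. Rmrp, the RNA of RNase MRP, is counted under 2 identifiers, so its counts could be split between them. ENSMUSG00000088088 was at 0 in all 8 supplemented Ts65Dn mice and averaged 39.1 CPM in control Ts65Dn mice, 45.4 in supplemented 2N mice and 25.3 in control 2N mice. ENSMUSG00000115420 averaged 250.2, 93.9, 7.21 and 12.6 CPM in those 4 groups. The first of these identifiers had counts of 0, 0, 0, 921, 0 and 1289 in control Ts65Dn mice. Its mean there thus rests on mice 4 and 6, and the others were at 0 like the supplemented mice. Control 2N mice 3 and 6 were at 0 as well. Small nucleolar RNAs guide chemical changes of ribosomal RNA. Of 49 tested box C/D members, which guide methylation, 41 were positive with a median of 1.73, but without the 7 libraries 13 were positive with a median of -1.10. Of 29 box H/ACA members, which guide pseudouridylation, 22 were positive with a median of 2.87, and without the 7 libraries 11 were, with a median of -0.66. In 11 of the 49 and 18 of the 29, some group had no count, so these medians rest partly on fitted values that are no bound, and 0 members of either list were called. Leaving out control Ts65Dn mouse 3 alone gave medians of 3.50 for box C/D and 6.34 for box H/ACA members, and leaving out control 2N mouse 4 gave 0.79 and 1.29. At an unadjusted p under 0.05 there were 7 positive and 1 negative box C/D members and 6 positive and 0 negative box H/ACA members. Over all tested genes 54.4% were positive, with 5.78% positive and 2.65% negative at that level.

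Several lists of synaptic genes lay on the negative side. Of 32 tested genes for postsynaptic scaffolds and kinases, the proteins that hold and modify receptors at the synapse, 26 were negative, with a median of -0.56 against 0.13 for all genes. Calcium handling genes were negative in 23 of 33 (median -0.39), glutamate receptor genes in 25 of 38 (median -0.26) and immediate early genes, which neurons switch on with activity, in 19 of 27 (median -0.47). The median of the immediate early genes was 0.20 without control Ts65Dn mouse 3, so its direction rests on that mouse. GABA receptor genes were positive in 10 of 18 (median 0.01), and genes of synaptic vesicles and release in 19 of 44 (median -0.08). None of these members was called. At an unadjusted p under 0.05 there were 2 negative and 1 positive postsynaptic genes, 4 and 0 calcium genes, 2 and 0 glutamate receptor genes, and 1 and 1 immediate early genes, where 2.65% of all genes were negative and 5.78% positive at that level.

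Nptxr, the neuronal pentraxin receptor that helps cluster AMPA receptors, ran from 55.9 to 124 CPM with a median of 71.1 in supplemented Ts65Dn mice. Control Ts65Dn mice had 388, 148, 1804, 81.9, 442 and 648 CPM. It stood at 136, 106, 86.6 and 116 CPM in supplemented 2N mice and at 94.6 to 327 CPM (median 146) in control 2N mice. Control Ts65Dn mice reached the highest levels, and the 2N groups overlapped. Nptxr fell with the supplement in Ts65Dn mice by 2.88 ± 0.38 on the log2 scale (adjusted p = 2.71e-05, edgeR). Its diet effect was -0.58 ± 0.44 in 2N mice and its interaction -2.30 ± 0.56 (95% interval -3.44 to -1.17, adjusted p = 0.193). Without control Ts65Dn mouse 3 the interaction of Nptxr was -1.51. Its diet effect in Ts65Dn mice no longer passed without the 7 libraries, which include that mouse (-2.36 ± 0.52, adjusted p = 0.114, edgeR).

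Kif3a, a motor subunit of kinesin-2, which carries cargo along microtubules, ran from 95.3 to 179 CPM (median 138) in supplemented Ts65Dn mice and from 170.1 to 339 CPM (median 272) in control Ts65Dn mice. It had 332, 236, 223 and 236 CPM in supplemented 2N mice and 244 to 268 CPM (median 256) in control 2N mice. Of the 8 supplemented Ts65Dn mice, 7 lay below every control Ts65Dn mouse. Kif3a fell by 0.99 ± 0.20 in Ts65Dn mice (adjusted p = 0.0212, edgeR), against a diet effect of -0.00 ± 0.24 in 2N mice, and its interaction was -0.99 ± 0.32 (95% interval -1.63 to -0.35, adjusted p = 0.289).

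Adcy1, a calcium-stimulated adenylyl cyclase, ran from 116 to 217 CPM (median 166) in supplemented Ts65Dn mice and from 133 to 1108 CPM (median 341) in control Ts65Dn mice. It stood at 179, 113, 243 and 211 CPM in supplemented 2N mice and at 104 to 291 CPM (median 131) in control 2N mice. Adcy1 fell by 1.39 in Ts65Dn mice (adjusted p = 0.0464, edgeR), with an interaction of -1.48 ± 0.48 (adjusted p = 0.303). Without the 6 libraries in which Chat was under 1 CPM the interaction of Adcy1 was 0.08. Grin2a, a subunit of the NMDA receptor, ran from 35.1 to 145 CPM (median 67.1) in supplemented Ts65Dn mice and from 119.5 to 269 CPM (median 194) in control Ts65Dn mice. Supplemented 2N mice had 121, 78.7, 118 and 44.6 CPM of Grin2a, and control 2N mice 58.7 to 179.7 CPM (median 85.2). Grin2a fell by 1.37 in Ts65Dn mice (adjusted p = 0.0464, edgeR) and had an interaction of -1.27 ± 0.48 (adjusted p = 0.402).

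Other named genes were called for the diet in Ts65Dn mice, while their interactions did not pass. Enc1, an actin-binding protein of neurons, fell by 2.40 (adjusted p = 0.00164, edgeR; interaction -1.61 ± 0.61). Cacna1e, the pore of R-type calcium channels, fell by 1.37 (adjusted p = 0.0428; interaction -1.11 ± 0.47). Camk2a, the alpha subunit of calcium/calmodulin kinase, fell by 1.98 (adjusted p = 0.0212; interaction -0.94 ± 0.62). Without the 6 libraries with Chat under 1 CPM, the interaction was 0.17 for Cacna1e and 0.91 for Camk2a. Ppp1r12b, a regulatory subunit of myosin phosphatase, was among the smallest p-values of the interaction (-1.16 ± 0.34, adjusted p = 0.22). It ran from 96.5 to 201 CPM (median 144) in supplemented Ts65Dn mice and from 126 to 284 CPM (median 235) in control Ts65Dn mice, with 177, 143, 196 and 182 CPM in supplemented 2N mice and 99.9 to 151 CPM (median 119.8) in control 2N mice.

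Markers of glutamatergic forebrain neurons, cells other than the captured kind, differed between the Ts65Dn groups as well. The sum of 11 such markers ran from 213 to 707 CPM (median 344) in supplemented Ts65Dn mice and from 418 to 3988 CPM (median 1100) in control Ts65Dn mice. It ran from 143 to 373 CPM (median 262) in supplemented 2N mice and from 300.0 to 992 CPM (median 387) in control 2N mice. Camk2a, described above, is among these markers and made up much of the sum. Its medians were 192 CPM in supplemented and 896 CPM in control Ts65Dn mice, and 108 and 199 CPM in the 2N groups. The sum is therefore not separate from the fall of Camk2a. Over the list, the median diet effect was -1.98 in Ts65Dn and -1.15 in 2N mice and the median interaction 0.10, with 6 of 11 positive and 0 at an unadjusted p under 0.05. Their part in the neuronal results was not tested. With the 7 libraries left out, Kif3a, Adcy1, Grin2a, Enc1, Cacna1e and Camk2a no longer passed for the diet in Ts65Dn mice, at log2 effects of -0.99, -0.99, -0.93, -1.51, -1.91 and -1.36 and adjusted p-values of 0.144 to 0.539 (edgeR). In such bulk samples, fewer cells of a type and less RNA per cell cannot be told apart. In the same 17 libraries 5 of 32 postsynaptic genes were positive with a median of -0.56, while the median of all genes was -0.28.

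**Figure D4:**
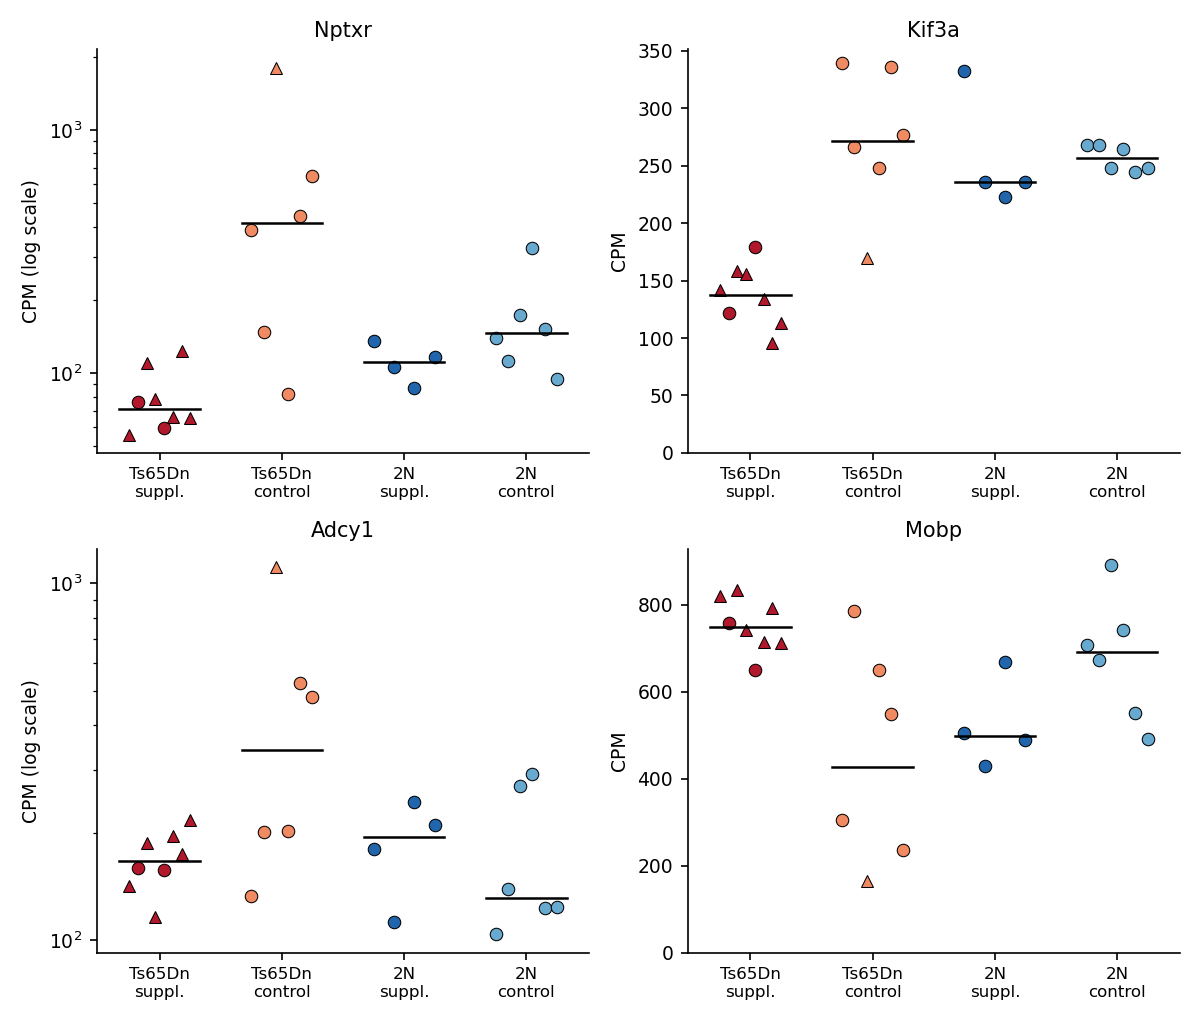
CPM of Nptxr, Kif3a, Adcy1 and Mobp, 1 point per mouse with the group median as a line; the axes of Nptxr and Adcy1 are logarithmic, and triangles mark the 7 libraries with Bc1 above 1000 CPM. Control Ts65Dn mice reach the highest Nptxr and Adcy1 levels, 1804 and 1108 CPM, and 7 of 8 supplemented Ts65Dn mice lie below every control Ts65Dn mouse for Kif3a.

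Genes that define the captured neurons had wide errors. Of 19 tested genes of cholinergic identity, 14 were positive with a median of 1.13 and a median SE of 1.38. Of these, 1 had an unadjusted p under 0.05 and 0 were called. Over all tested genes 54.4% were positive, 5.78% with an unadjusted p under 0.05. The sum of the list ran from 512 to 761 CPM (median 605) in supplemented Ts65Dn mice and from 74.5 to 450.2 CPM (median 361) in control Ts65Dn mice. It ran from 498 to 816 CPM (median 615) in supplemented 2N mice and from 459.7 to 596 CPM (median 495) in control 2N mice. In this sum, which abundant members dominate, control Ts65Dn mice were thus lower than every mouse of the other 3 groups. The groups overlapped in a score that weights members equally, the mean of log2 CPM centred per gene. It ran from -0.24 to 1.38 in supplemented and from -3.75 to 0.01 in control Ts65Dn mice. In supplemented and control 2N mice it ran from -0.03 to 1.10 and from -0.06 to 0.54.

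Chat ran from 0.565 to 53.6 CPM (median 7.17) in supplemented Ts65Dn mice and from 0 to 18.1 CPM (median 7.33) in control Ts65Dn mice. It had 37.4, 54.1, 0.563 and 10.7 CPM in supplemented 2N mice and 0.803 to 21.6 CPM (median 14.1) in control 2N mice. Its interaction was -0.03 ± 1.47 (95% interval -3.01 to 2.94), so a difference of several-fold in either direction was not detectable. The vesicular acetylcholine transporter Slc18a3 had 1.67 ± 1.83 and the choline transporter Slc5a7, which brings choline back into the terminal, 1.67 ± 1.38. Ache, which breaks down acetylcholine, had 1.19 ± 0.57 (adjusted p = 0.579, edgeR). Ngfr, the low-affinity neurotrophin receptor of these neurons, had 0.25 ± 0.78.

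Genes that handle the nutrient itself lay near the background. Of 44 tested genes of choline and one-carbon metabolism, 21 were positive and 23 negative, with a median of -0.09, and 0 had an unadjusted p under 0.05. The smallest adjusted p was 0.788, for the choline kinase Chka (0.80 ± 0.52, edgeR). Of 54 genes for DNA and histone methylation, which draw on the methyl groups that choline can supply, 36 were negative with a median of -0.13, and 3 negative members had an unadjusted p under 0.05. These were the histone demethylase Kdm2b (-1.78 ± 0.72), the maintenance methylation factor Uhrf1 (-7.24 ± 3.09, at 2.43 CPM or less in every group mean) and the methylcytosine oxidase Tet3 (-0.89 ± 0.39). Their adjusted p-values were 0.463, 0.493 and 0.517 (edgeR).

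Triplicated genes had a higher median level in Ts65Dn than in 2N mice on either diet. The median log2 difference between Ts65Dn and 2N mice over 76 tested genes of the chromosome 16 segment was 0.62 among supplemented and 0.38 among control mice, and over 29 genes of the chromosome 17 segment 0.57 and 0.53. The median interaction was 0.26 in both, with 48 of 76 and 19 of 29 positive and 0 called. At an unadjusted p under 0.05 there were 5 and 3 positive members and 0 negative ones. Over all tested genes 54.4% were positive, with 5.78% positive and 2.65% negative at that level. Without the Bc1-rich libraries the median interactions of the 2 segments were 0.03 and -0.16, where the median of all genes was -0.28 instead of 0.13. App, the amyloid precursor, was measured closely at 2213 CPM or more in every mouse, and its interaction was 0.25 ± 0.23 (95% interval -0.21 to 0.70). Sod1, superoxide dismutase, had 0.72 ± 0.63, and the kinase Dyrk1a -0.56 ± 0.41.

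Markers of oligodendrocytes, the myelin-forming glia whose processes lie between the captured cells, were positive in 15 of 16, with a median of 1.01 and 4 at an unadjusted p under 0.05. None of these markers was called. Over all tested genes 54.4% were positive, 5.78% at that level. Mobp, a myelin protein, ran from 649 to 834 CPM (median 749.7) in supplemented Ts65Dn mice and from 166 to 786 CPM (median 426) in control Ts65Dn mice. It had 506, 428, 669 and 489 CPM in supplemented 2N mice and 491 to 892 CPM (median 690.3) in control 2N mice. The interaction of Mobp was 1.12 ± 0.36 (adjusted p = 0.292, edgeR). Mag, a myelin adhesion protein, ran from 106 to 196 CPM (median 153) in supplemented Ts65Dn mice and from 12.5 to 147 CPM (median 80.9) in control Ts65Dn mice. It had 73.4, 46.0, 87.8 and 42.5 CPM in supplemented 2N mice and 89.1 to 140.4 CPM (median 99.2) in control 2N mice, with an interaction of 1.71 ± 0.53 (adjusted p = 0.251).

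The oligodendrocyte markers summed to between 3108 and 4326 CPM in supplemented Ts65Dn mice, 845 and 4386 CPM in control Ts65Dn mice, 2768 and 3747 CPM in supplemented 2N mice, and 3424 and 4373 CPM in control 2N mice. Leaving out the 7 libraries, 15 of 16 were positive with a median of 0.78. With a covariate made from the marker scores of astrocytes and oligodendrocytes, the interaction of Nptxr was 0.12 and the median of the mitochondrial mRNAs 0.93. Astrocyte markers were positive in 14 of 18 (median 0.46), whereas those of microglia (7 of 13, median 0.01) and vessels (8 of 17, median -0.09) were balanced. At an unadjusted p under 0.05 there were 2 positive astrocyte markers, 1 negative microglial marker and 0 vessel markers, and 0 of any of them were called. Over all tested genes 54.4% were positive, with 5.78% positive and 2.65% negative at that level.

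Among the other lists, axonal transport motors had a median interaction of -0.05, voltage-gated channels 0.02, autophagy 0.15, the proteasome 0.17, endosomes and lysosomes 0.17, chaperones 0.18 and cytosolic ribosomal proteins 0.11. None of their members was called, and each of these lists held 0 to 2 members per direction at an unadjusted p under 0.05, Kif3a among them. The list called App processing and Alzheimer-related had a median of 0.04 over 28 genes, and the interferon response 0.21 over 25. Farther from the median of all genes were acetylcholine receptors (-0.52, 4 of 10 positive), neurotrophins and their receptors (-0.31, 4 of 15 positive), markers of striatal projection neurons (-0.44, 4 of 12 positive), mitochondrial tRNAs (0.89, 14 of 21 positive) and markers of ependyma and choroid plexus (1.95, 4 of 5 positive), all with 0 members called. The neurotrophin and tRNA lists each held 1 positive and 1 negative member at an unadjusted p under 0.05, and the other 3 lists held 0. Without the Bc1-rich libraries the ependyma median was -1.45 and the striatal median -1.35.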

How the data were processed

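Per the submitters' processing notes, reads were trimmed with Trimmomatic 0.39, aligned with STAR and quantified with RSEM. The STAR and RSEM versions are not given in those sources, and the notes name GRCm39 and mm10 without their roles. The deposited gene table holds the expected counts of RSEM, not normalized, per the file headers, and they were rounded to whole numbers here. Of 55414 gene identifiers, 52133 matched GENCODE M21, used for symbols and chromosomes. Genes were kept with filterByExpr (minimum count 10), scaled by TMM and tested with edgeR 4.0.16 (quasi-likelihood F test, R 4.3.3) in 1 fit of all 24 libraries without covariates. All 19967 p-values of a contrast were adjusted together (Benjamini-Hochberg). CPM use TMM-scaled library sizes. The code was tested on simulated data.

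The 12 genes of smallest p on either side (unnamed models and pseudogenes passed over), up to 3 members per list with an unadjusted p under 0.05 and 13 fixed genes could be named; mt-Rnr2, mt-Co3, Gm28437 and Chka were added after their values were seen. The members and all 41 lists were chosen with earlier results of these data known, and lists were described, not tested. A nuclear copy had at least 99% identity over at least 90% of the copy's own length. Alternatives included DESeq2 1.42.0, limma-voom (limma 3.58.1), other filters, covariates and left-out libraries. Some genes and sequences that the naming rule covers are not reported here.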

Additional observations from a re-analysis of the deposited data

Results flagged for a closer look

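Mir6236 stood out because the diet effects in the 2 genotypes differed by the interaction test itself, with a log2 interaction of -3.06. Of 112 groups of mice examined over 28 measures, 10 held a mouse far from the others of its group. The nominal rate of the threshold by chance alone is about 1 in 20 groups, and the measures are not independent. The gap to the nearest mouse as a share of the group's range on the log2(CPM + 1) scale follows each value.

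Control 2N mouse 6 was low in mt-Nd5, at 2559 CPM where the others had 3903 to 4787 (0.674), and in mt-Cytb, at 1934 where the others had 3203 to 4170.1 (0.656). Rprl2 was high in control Ts65Dn mouse 6, at 4.67 CPM where the others had 0 to 0.448 (0.787), and in supplemented 2N mouse 4, at 2.55 where the others had 0 to 0.104 (0.922). Ppp1r12b was low in control Ts65Dn mouse 4, at 126 CPM where the others had 223 to 284 (0.703). Kif3a was high in supplemented 2N mouse 1, at 332 CPM where the others had 223 to 236 (0.853), and Slc5a7 was low in the same mouse, at 2.72 where the others had 31.7 to 36.2 (0.945). Chat was low in control 2N mouse 5, at 0.803 CPM where the others had 7.79 to 21.6 (0.626). Ngfr was low in supplemented Ts65Dn mouse 7, at 1.70 CPM where the others had 25.7 to 84.0 (0.665). Bc1 was high in control Ts65Dn mouse 3, at 15442 CPM where the others had 22.8 to 97.4 (0.781).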

How the results depend on the processing

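No paired analysis was possible because the replicate numbers were given in accession order and no label links mice of different groups. Errors were widest in genes under 10 CPM, where the median SE was 2.63 log2 units or more. The parts of depth and of spread between mice in these errors were not tested.

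The count of interaction genes (higher 0, lower 1) kept its value with DESeq2 size factors, a minimum count of 50, summed nuclear copies, and without the 6 libraries with Chat under 1 CPM. It was 244 higher and 70 lower with the DESeq2 Wald test, 250 of these 314 having a group at 0, and 81 and 44 with no filter on low counts, with 39538 genes tested. It was 0 and 0 with limma-voom, the robust fit and the mitochondrial ribosomal RNA share as a covariate, and 1 and 1 at an adjusted p under 0.1. It was 11 and 1 with the identifier prefix as a factor and 12 and 3 with the glial score as a covariate. Without the 2 libraries with the fewest genes detected it was 10 and 2, without supplemented Ts65Dn mice 2 and 5 it was 16 and 11, and without the 7 Bc1-rich libraries 0 and 4. Leaving out 1 library gave 0 to 10 higher and 1 to 3 lower genes; control Ts65Dn mouse 3 gave 10 and 2, control Ts65Dn mouse 2 gave 9 and 3, and control Ts65Dn mouse 4 gave 1 and 3. The cause was not tested.

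Without the 7 libraries the interaction of the mitochondrial ribosomal RNA share was 3.50 points and that of genes detected -1607; leaving out 1 library gave 11.1 to 14.8 points and 774 to 2349 genes. Of 3535 values of named genes under 39 alternatives, 3411 kept direction and side of the threshold, 86 newly passed, 3 no longer passed and 35 reversed. With the glial score as a covariate Nptxr was 0.12, Plch2 0.39, Nefm -0.018 and Ngfr -0.37. Without the 6 Chat-poor libraries Homer2 was 0.48, Cacna1e 0.17, Adcy1 0.077, Ngfr -0.35 and Camk2a 0.91. With the ribosomal RNA covariate Dusp5 was -0.91, Chat 1.85 and Bc1 -2.33, and with limma-voom Chat was 1.11. Without the 7 libraries Rprl2 was -3.97, Dusp5 -1.34, Nqo1 -0.49, Snora73b -1.07, Snora81 -1.98, Slc32a1 -0.16, Chat 1.26 and Bc1 -0.41. Leaving out 1 library moved Chat between -0.64 and 0.63.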
